A study of Mus musculus with 96 samples.

Results

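The vasopressin receptor genes Avpr2 and Avpr1a, 6 adenylyl cyclase genes (Adcy3, Adcy4, Adcy5, Adcy6, Adcy7 and Adcy9), the stimulatory G protein gene Gnas and the cyclic AMP phosphodiesterase gene Pde4d were followed along the nephron of the mouse kidney. They were taken by symbol from a table of 54532 genes, and all 10 of 10 were found. RNA from very small inputs was sequenced from glomeruli (GL) and from 14 hand-dissected tubule segments of male C57BL/6 mice aged 6 to 8 weeks, which had free access to water and normal chow. All groups were untreated and of the same strain and sex, so the comparisons are between places in the nephron and between no treatments. The 93 samples gave 53 mouse replicates counted within segments, with 5 mice each in CCD, CTAL and PTS2, 4 each in OMCD and ATL, and 3 in every remaining group. Up to 3 pieces of tubule per mouse were averaged, and the mouse was the replicate. Mouse numbers recur between segments, and the labels do not say whether a recurring number is the same animal.

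The segments are named in tubule order. PTS1, PTS2 and PTS3 are the first convoluted, the cortical straight and the outer-stripe straight parts of the proximal tubule. DTL1 is the descending thin limb of short loops, and DTL2 and DTL3 are the outer and inner medullary stretches of the descending limb of long loops. ATL is the thin ascending limb, MTAL and CTAL are the medullary and cortical thick ascending limbs, DCT is the distal convoluted tubule and CNT the connecting tubule. CCD, OMCD and IMCD are the cortical, outer medullary and inner medullary collecting ducts. A dissected piece holds every cell type of that stretch of tubule, so fewer cells of a type and less RNA per cell cannot be told apart in any value below.

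Vasopressin is the antidiuretic hormone. The V2 receptor encoded by Avpr2 couples through the stimulatory G protein, whose alpha subunit is encoded by Gnas, to adenylyl cyclases that make cyclic AMP. Cyclic AMP acts through protein kinase A and through the exchange factors known as Epac, and in principal cells of the collecting duct it drives the water channel aquaporin-2 to the luminal membrane. Phosphodiesterases, among them the one encoded by Pde4d, break cyclic AMP down. The V1a receptor encoded by Avpr1a couples instead to Gq proteins and raises intracellular calcium. Among the cyclases, the products of Adcy5 and Adcy6 are inhibited by calcium, those of Adcy1, Adcy3 and Adcy8 are stimulated by calcium and calmodulin, and those of Adcy4 and Adcy7 are stimulated by G protein beta-gamma subunits.

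Levels are given as TPM, a transcript abundance per unit of transcript length that sums to the same total in every sample, so levels may be compared between genes. A TPM keeps no record of read numbers, so the depth of sequencing cannot be stated and counting error has no interval here. Means are over mice, with the SD. Differences are on the log2(TPM + 1) scale, which understates the change of low genes, and come from limma fitted to all 15 groups. A difference was called at a Benjamini-Hochberg adjusted p under 0.05, adjusted over the 33793 genes that reached 1 TPM in 3 or more mice, together with an absolute log2 difference of at least 1. The p-values measure the spread between the sampled mice. All 10 members passed that filter on low values and all 10 differed among the 15 groups, as did 93.9% of all genes tested (limma's moderated F-test).

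The defining markers were found in the labelled segments. The 5 proximal genes summed to 11800.2 to 83447 TPM over PTS1, PTS2 and PTS3, and the 4 thin limb genes to 6125 to 20174 TPM over DTL2, DTL3 and ATL. In DTL1 the thin limb sum was lower, with a median of 1095 TPM, near that of MTAL at 1245 TPM, and below the proximal sum in the same pieces, which was 1046 to 4222 TPM with a median of 2295 TPM. Slc14a2, a urea transporter gene known from the descending limbs of short loops and not in the thin limb list, was 4052 to 9809 TPM in DTL1 and highest there. The part of proximal tubule in the DTL1 levels and in the differences between PTS3 and DTL1 was not tested. The 4 podocyte genes summed to 7428 to 8575 TPM in GL, the 3 thick limb genes (Slc12a1, Umod, Cldn16) to 21454 to 45793 TPM over MTAL and CTAL, the 3 distal convolution genes to 11522 to 14719 TPM in DCT, and the 7 principal cell genes to 10881 to 58161 TPM from CNT to IMCD. Some libraries stood apart. Odorant and vomeronasal receptor genes are best known from sensory neurons. Of 1979 such genes, 403 to 898 reached 1 TPM in the GL mice, 274 to 925 in DTL1, DTL2 and DTL3, and 76 to 253 in OMCD, against 0 to 31 in the mice of every other group apart from ATL. For ATL the number was 33 (mouse 2), 20 (mouse 3), 601 (mouse 4) and 703 (mouse 6). Several low levels of members in those groups are given below beside this background, and calls that touch ATL were refitted with mice 2 and 3 alone.

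The promoters of Avpr2, Avpr1a and Adcy5 are shown because these members had the largest differences between neighbouring segments from CTAL to IMCD, with Avpr1a and Adcy5 both highest, within the distal nephron, in CNT and CCD. Sequences are the 250 bases before the RefSeq transcription start in GRCm38.p6, read 5′ to 3′ on the gene's strand, with capitals marking a searched motif. Capitals in Avpr2 mark TTATC, which is GATAA, the letters bound by GATA factors, on the other strand. Capitals in Avpr1a mark TGACG, the first letters of the cyclic AMP response element, and those in Adcy5 mark AGGAAG, an ETS core.
Avpr2, chrX:73891852-73892101, plus strand: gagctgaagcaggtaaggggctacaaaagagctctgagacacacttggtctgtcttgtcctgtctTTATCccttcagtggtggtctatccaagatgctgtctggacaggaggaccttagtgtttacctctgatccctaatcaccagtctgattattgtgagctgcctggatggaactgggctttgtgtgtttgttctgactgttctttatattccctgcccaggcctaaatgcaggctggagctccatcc
Avpr1a, chr10:122448249-122448498, plus strand: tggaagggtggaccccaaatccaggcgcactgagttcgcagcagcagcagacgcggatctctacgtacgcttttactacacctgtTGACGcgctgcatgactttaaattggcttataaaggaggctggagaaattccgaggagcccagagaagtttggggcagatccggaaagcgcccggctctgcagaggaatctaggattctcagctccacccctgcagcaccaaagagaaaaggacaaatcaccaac
Adcy5, chr16:35154614-35154863, plus strand: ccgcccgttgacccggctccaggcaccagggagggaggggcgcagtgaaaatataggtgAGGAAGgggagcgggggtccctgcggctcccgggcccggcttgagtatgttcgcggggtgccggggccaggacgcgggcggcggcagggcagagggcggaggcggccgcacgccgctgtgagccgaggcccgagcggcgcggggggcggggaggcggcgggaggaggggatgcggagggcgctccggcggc

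Promoter entries were found for 9 of the 10 members, and Adcy6 had none in the table used. The full cyclic AMP response element TGACGTCA and GTTAAT, the first letters of an HNF1 site, were searched on both strands and had no match in the 300-base windows (250 bases before and 50 after the start) of these members. Among all 32851 promoter windows, 25.4% held the GATA letters, 20.8% the short and 1.79% the full cyclic AMP response element, 35.4% the ETS core and 7.1% the HNF1 letters. The short response element is contained in the full one. Counted from the start site, the first capital lay at -185 in Avpr2, -165 in Avpr1a and -191 in Adcy5. The Adcy5 stretch was 78.0% G or C, against 53.6% for Avpr1a and 49.2% for Avpr2.

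Avpr2 (ENSMUSG00000031390) had its highest levels in the collecting duct. In OMCD the 4 mice had 961, 1685, 1228 and 1215 TPM, and in CCD the 5 mice had 1180.4, 847, 1174, 1245 and 729 TPM. The IMCD mice had 719, 1289 and 1026 TPM and the CNT mice 611, 699 and 584 TPM. The mice of OMCD, CCD and IMCD overlapped one another, whereas every CNT mouse lay below every mouse of those groups. In order of level the groups were OMCD (1272 ± 301 TPM, n = 4), CCD (1035 ± 231, n = 5), IMCD (1011 ± 286, n = 3) and CNT (631 ± 59.9, n = 3), and no neighbour in this order differed from the next by limma (adjusted p 0.426, 1 and 0.197).

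A step separated these groups from the loop of Henle and DCT. The ATL mice had 237, 211, 108 and 201 TPM, the MTAL mice 103, 139 and 169 TPM, the CTAL mice 67.4, 59.1, 80.1, 42.3 and 59.7 TPM, and the DCT mice 34.3, 41.6 and 48.9 TPM. The lowest CNT mouse was above the highest ATL mouse, and CNT exceeded ATL, the next in order, by 1.79 log2 units (SE 0.31, adjusted p 8.11e-06 by limma). ATL and MTAL did not differ beyond their spread (0.43, SE 0.31, adjusted p 0.251), nor did CTAL and DCT (0.63, SE 0.30, adjusted p 0.311). The Avpr2 MTAL minus CTAL difference was 1.14 (SE 0.30, adjusted p 0.0102) and the mice did not overlap. That call was lost with a pseudocount of 0.1 TPM (1.15, adjusted p 0.136), without MTAL mouse 3 (0.97, adjusted p 0.124) and with a replicate block (0.91, adjusted p 0.0340).

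Between the thick limb and the collecting duct, DCT had the lowest mean of Avpr2, within the spread of CTAL. From DCT to CNT the level changed by -3.98 log2 units as DCT minus CNT (SE 0.33, adjusted p 6.86e-13 by limma), the largest step of Avpr2 between neighbouring segments of the distal nephron. Over the whole collecting duct (CCD, OMCD and IMCD) against the thick limb (MTAL and CTAL), Avpr2 was higher by 3.56 (SE 0.19, adjusted p 2.06e-20).

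Avpr2 was low in the proximal tubule and glomerulus. It stood at 0.04 to 0.20 TPM in PTS1, 0.15 to 0.69 in PTS2 and 0.35 to 0.45 in GL, and was listed at 0 in all 3 PTS3 mice. The segments from MTAL to IMCD exceeded the proximal tubule by 8.05 log2 units (SE 0.15, adjusted p 2.54e-38 by limma), a size that depends on the pseudocount, from 5.93 to 10.5 over the alternatives. GL was lower than the mean of the tubule segments (-4.81, SE 0.24, adjusted p 1.82e-21), although its mice overlapped those of PTS2.

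Among the descending limbs, DTL3 and DTL1 held Avpr2 at levels between those of DCT and PTS2, and DTL2 was low. The DTL3 mice had 11.7, 22.2 and 14.98 TPM, the DTL1 mice 10.7, 11.8 and 1.93 TPM, and the DTL2 mice 1.75, 1.24 and 0.10 TPM. DTL2 overlapped PTS2 and did not differ from it beyond the spread (0.31, SE 0.30, adjusted p 0.366 by limma). At or above the Avpr2 mean stood 15.1% of the odorant and vomeronasal receptor genes in DTL2, 2.58% in DTL1 and 0.101% in DTL3. DTL3 was higher than DTL2 (DTL2 minus DTL3 -3.23, SE 0.33, adjusted p 2.70e-10 by limma) and lower than ATL (DTL3 minus ATL -3.45, SE 0.31, adjusted p 2.73e-12), without overlap of mice. In DTL3 the 7 principal cell genes summed to 1485 to 1867 TPM, most of it Fxyd4, while Aqp2, their defining gene, was 5.61 to 18.7 TPM. The 3 thick limb genes summed to 188 to 330 TPM in DTL3, nearly all of it Umod, and to 304 to 736 TPM in ATL, most of it Cldn16. In ATL, Aqp2 was 1.46 to 25.1 TPM and Slc12a1 0.69 to 25.6 TPM, against a mean of 27393 TPM of Aqp2 in IMCD and 4116 TPM of Slc12a1 in MTAL. In DTL1 the thick limb genes summed to 81.01 to 395 TPM and the principal cell genes to 55.6 to 138 TPM. The part of neighbouring tubule in the Avpr2 of these pieces was not tested.

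The exons of Avpr2 overlap those of Arhgap4 on the opposite strand, and whether reads were counted by strand is not given in the sources used here. Arhgap4 had its highest mean in OMCD, at 75.7 TPM, and stood at 27.1 TPM in ATL and 24.4 TPM in MTAL. Reads from the shared stretch could therefore have been given to either gene.

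Avpr1a (ENSMUSG00000020123) was high over a shorter stretch, from DCT to OMCD. The CNT mice had 313, 312 and 278 TPM and the CCD mice 294, 182, 270.2, 172 and 207 TPM. The DCT mice had 46.8, 56.7 and 53.0 TPM and the OMCD mice 29.1, 27.1, 86.0 and 45.4 TPM. DCT and OMCD overlapped, and both lay below every mouse of CNT and CCD. CNT and CCD did not differ beyond their spread (0.45, SE 0.27, adjusted p 1 by limma), nor did DCT and OMCD (0.24, SE 0.28, adjusted p 0.512).

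On either side of this stretch Avpr1a was near 0. The MTAL mice were all listed at 0, the CTAL mice stood at 0.14 to 1.04 TPM and the IMCD mice at 0.17 to 0.42 TPM. CTAL was lower than DCT (CTAL minus DCT -5.08, SE 0.27, adjusted p 1.04e-19 by limma), DCT lower than CNT (-2.57, SE 0.30, adjusted p 7.43e-09), CCD higher than OMCD (2.36, SE 0.25, adjusted p 5.38e-10) and OMCD higher than IMCD (5.08, SE 0.28, adjusted p 2.12e-19). In none of these pairs did a mouse overlap.

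Outside the distal nephron, Avpr1a was detected at 5.70, 7.45 and 6.10 TPM in the 3 GL mice, where 1.11% of the odorant and vomeronasal receptor genes had a mean at or above its own. Its level there exceeded that of CTAL, the next in order, by 2.30 (SE 0.27, adjusted p 7.99e-10 by limma). Mean levels in PTS1, PTS2, PTS3 and the descending limbs were 0 to 0.30 TPM, and in ATL 3 of 4 mice were listed at 0, the other at 2.20 TPM.

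The receptors differed in their course within the collecting duct. Against CCD, IMCD had 7.44 log2 units less Avpr1a (IMCD minus CCD -7.44, SE 0.27, adjusted p 2.30e-26 by limma), while Avpr2 differed by -0.04 (SE 0.30, adjusted p 1). As a share of the summed TPM of both receptors, Avpr1a took 57.7%, 57.7% and 52.0% in the DCT mice, 33.9%, 30.8% and 32.2% in CNT, and 12.1% to 22.1% in CCD. It took 1.58% to 6.54% in OMCD and averaged 0.034% in IMCD. In tubule order the mean shares were 55.8 ± 3.29% (SD, n = 3) in DCT, 32.3 ± 1.52% (n = 3) in CNT, 18.1 ± 3.73% (n = 5) in CCD and 3.67 ± 2.09% (n = 4) in OMCD, and the mice of these groups did not overlap.

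**Figure D1:**
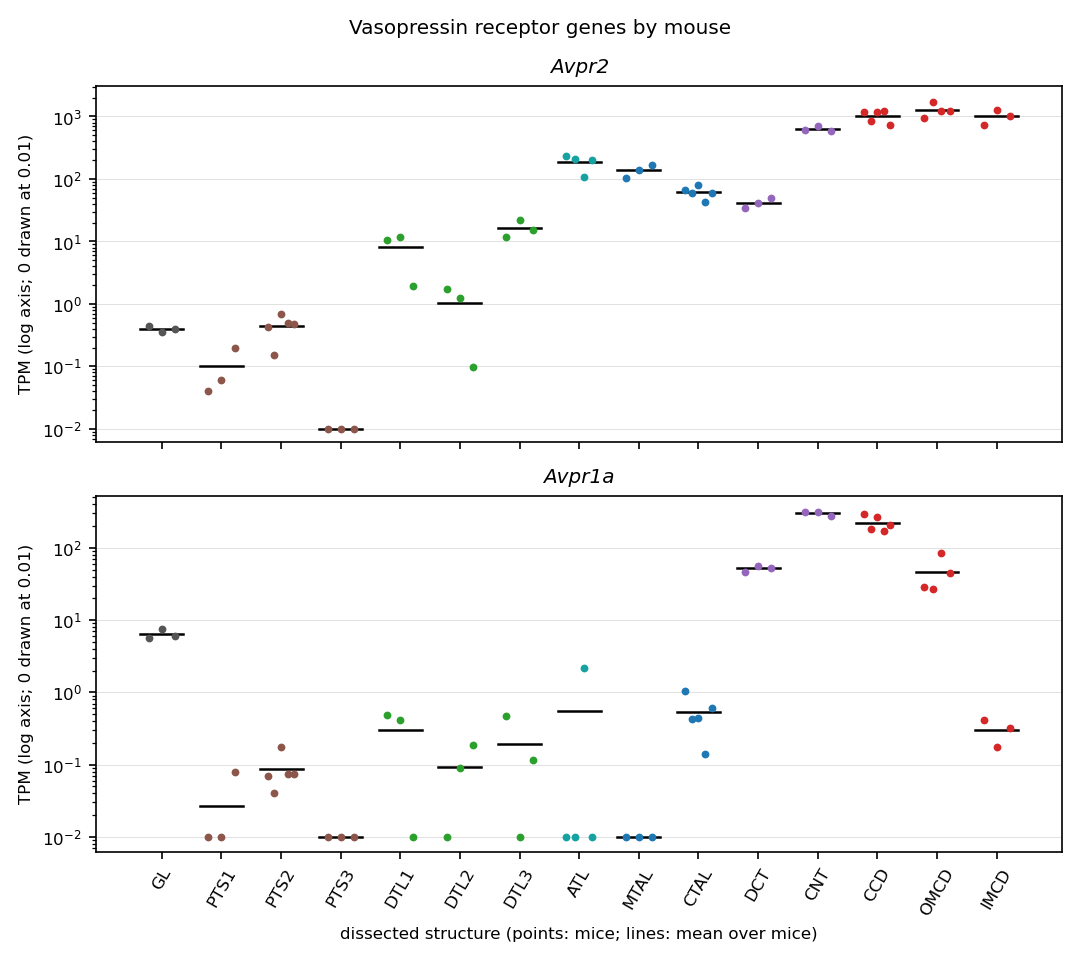
Abundance of Avpr2 and Avpr1a (TPM, log axis) in each of the 15 groups in nephron order. Points are mice and bars group means; Avpr2 was at least 584 TPM in every mouse from CNT to IMCD, whereas Avpr1a was under 1 TPM in the 3 IMCD mice and highest in CNT and CCD.

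Markers of intercalated cells, the acid-base cells that share these segments with principal cells, had their highest sums in CNT and CCD, where Avpr1a was highest, although Slc4a1 among them was highest in OMCD. Across the 15 group means Pearson's r of Avpr1a with Foxi1, one of these markers, was 0.97, a gene named here after its value was seen. OMCD had a higher marker sum than DCT, at an Avpr1a level that did not differ beyond the spread. The 7 intercalated cell genes summed to 822 to 894 TPM in DCT, 5368 to 6139 in CNT, 4433 to 5634 in CCD, 3143 to 4356 in OMCD and 0.81 to 5.8 in IMCD, and to at most 35.1 TPM in any mouse of the other groups. In IMCD 0 of the 7 had a mean of 1 TPM or more. Slc26a4, the exchanger gene of one intercalated cell type, averaged 271 TPM in DCT, 2475 in CNT, 1769 in CCD and 4.36 in OMCD, while Slc4a1, the exchanger gene of the other type, averaged 88.3, 468, 496 and 1582 TPM. The 7 principal cell genes summed to 849 to 983 TPM in DCT, 10881 to 15238 in CNT, 23181 to 28843 in CCD, 40880 to 58161 in OMCD and 27984 to 34936 in IMCD. Their part in the receptor levels was not tested.

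Adcy6 (ENSMUSG00000022994) was the most widely expressed cyclase. It stood at 13.8 TPM or more in every mouse of every group outside the proximal tubule, and at 1.70 to 4.25 TPM within it. The ATL mice had 78.7, 62.4, 128 and 79.4 TPM, the DTL3 mice 38.3, 49.5 and 51.5 TPM, and the IMCD mice 31.2, 46.8 and 45.8 TPM. Every ATL mouse lay above every mouse of the other groups, and ATL exceeded DTL3 by 0.86 log2 units (SE 0.19, adjusted p 0.000495 by limma), which is short of the required size of 1. That difference was 1.16 after median ratio rescaling and 1.22 under quantile normalization, and was then called.

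The largest steps of Adcy6 were at the ends of the proximal tubule and of ATL. PTS3 (3.13, 3.36 and 2.44 TPM) was below DTL1 (34.9, 29.8 and 55.6 TPM), the difference being -3.33 log2 units with an SE of 0.21 (adjusted p 3.01e-18 by limma). Its difference from DTL2 was -2.79 (SE 0.21, adjusted p 1.06e-15). ATL was above MTAL (20.04, 20.8 and 22.8 TPM) by 1.94 (SE 0.19, adjusted p 1.58e-11). From MTAL to CCD no neighbouring pair was called, and means lay between 17.4 and 21.9 TPM. The segments from MTAL to IMCD together exceeded the proximal tubule by 2.74 (SE 0.09, adjusted p 1.40e-28), with no overlap between their mice.

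Along the collecting duct Adcy6 was higher in the medulla by amounts under 1 log2 unit. The mice of CCD had 20.7, 22.4, 18.1, 27.8 and 20.5 TPM and those of OMCD 33.7, 38.0, 37.1 and 29.8 TPM, without overlap. IMCD minus CCD was 0.85 (SE 0.18, adjusted p 0.000211 by limma), and 1.16 under quantile normalization, where it was called.

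Adcy5 (ENSMUSG00000022840) peaked in CNT and CCD within the distal nephron, as Avpr1a did, but was low in DCT. The CNT mice had 8.61, 10.3 and 7.83 TPM, the CCD mice 8.86, 8.62, 10.2, 8.07 and 10.99 TPM, and the OMCD mice 1.21, 1.45, 2.10 and 2.84 TPM. The DCT mice had 0.49, 0.63 and 0.72 TPM and the IMCD mice 0.19, 0.22 and 0.10 TPM. CNT and CCD overlapped, and neither overlapped DCT, OMCD or IMCD.

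Each end of that stretch of Adcy5 was called. DCT minus CNT was -2.62 (SE 0.25, adjusted p 5.31e-11 by limma), CCD minus OMCD 1.87 (SE 0.21, adjusted p 3.15e-09), OMCD minus IMCD 1.29 (SE 0.24, adjusted p 2.62e-05) and IMCD minus CCD -3.15 (SE 0.23, adjusted p 8.09e-16). The OMCD minus IMCD difference was below 1 with a pseudocount of 5 TPM (0.41) and under quantile normalization (0.62). Across the 15 group means on the log2(TPM + 1) scale, which share the same libraries, Pearson's r of Adcy5 with Avpr1a was 0.77, given as a description. The 7 smooth muscle and stroma genes summed to 63.9 to 80.5 TPM in CNT and 56.6 to 64.3 in CCD, nearly all of it Dcn (means of 71.2 and 55.9 TPM), against 3.55 to 10.9 in DCT, 7.45 to 15.9 in OMCD and 3.21 to 6.8 in IMCD, and to 495 to 689 TPM in GL, where Adcy5 and Avpr1a were also found. The sum was also 11.02 to 42.1 TPM in CTAL, where Adcy5 averaged 0.053 TPM, and 23.7 to 53.9 TPM in DTL1, where Avpr1a averaged 0.30 TPM. The part of these, intercalated or principal cells in the levels of Adcy5 and Avpr1a was not tested. Outside the distal nephron Adcy5 was also found in GL (6.90, 6.35 and 9.50 TPM), which did not differ beyond the spread from CNT (0.22, SE 0.25, adjusted p 0.450 by limma), and in DTL1 (2.37, 1.63 and 4.43 TPM). The odorant and vomeronasal receptor genes with a mean at or above that of Adcy5 were 0.859% in GL and 19.9% in DTL1.

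Adcy4 (ENSMUSG00000022220) and Adcy3 (ENSMUSG00000020654) were highest in the glomerulus. The GL mice had 66.0, 68.6 and 58.3 TPM of Adcy4, above the highest tubule mouse at 10.8 TPM in DTL1. They had 10.2, 6.65 and 10.95 TPM of Adcy3, where the highest tubule mouse reached 2.87 TPM. Both exceeded every other group by at least 1 log2 unit, a condition met by 8.8% of all genes for some group and by 3.22% for GL. The margin over the next group was 3.05 for Adcy4 over DTL2 (SE 0.46, adjusted p 1.38e-06 by limma) and 1.90 for Adcy3 over DTL1 (SE 0.31, adjusted p 6.07e-06). These were the only 2 of the 10 members that marked a single group, against 3 after median ratio rescaling and 4 under quantile normalization.

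The glomerulus also held endothelial cells, as did the descending limbs by their markers. The 7 endothelial genes summed to 4284 to 4326 TPM in GL, 3194 to 4285 in DTL1, 1200 to 2202 in DTL2, 759 to 1808 in DTL3 and at most 587 TPM in any other mouse. Adcy4 was 10.8, 10.3 and 0.71 TPM in DTL1, 6.32, 7.17 and 7.23 TPM in DTL2 and 7.85, 0.25 and 2.47 TPM in DTL3. The odorant and vomeronasal receptor genes with a mean at or above that of Adcy4 were 3.28% in DTL1, 0.253% in DTL2, 2.07% in DTL3, 41.3% in ATL and 1.11% in OMCD. In DTL1 the endothelial sum was close to that of GL while every Adcy4 value was below 11 TPM. The part of endothelial cells in these values was not tested.

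The other called steps of Adcy4 and Adcy3 involved low levels. PTS3 minus DTL2 was -2.51 for Adcy4 (SE 0.46, adjusted p 1.03e-05 by limma) without overlap, whereas PTS3 and DTL1 overlapped (-2.10, SE 0.46, adjusted p 7.69e-05). The Adcy4 PTS3 minus DTL1 call was lost under quantile normalization (-0.50, adjusted p 0.314) and with a pseudocount of 5 TPM (-0.99). The Adcy4 differences DTL2 minus DTL3 (1.25, adjusted p 0.0494) and CCD minus OMCD (-1.02, adjusted p 0.0383) were lost in 9 of 17 and 11 of 21 alternatives. The Adcy4 DTL2 minus DTL3 difference was 0.55 without DTL3 mouse 2 (adjusted p 0.477) and 1.96 without DTL3 mouse 1 (adjusted p 0.00162), and leaving out any other mouse of these 2 groups also lost the call, at 1.22 to 1.298. The Adcy4 CCD minus OMCD difference lost its call without OMCD mouse 1 (-0.83) or 3 (-1.03) or any of CCD mice 1 to 4 (-1.02 to -0.99). The Adcy4 DTL3 minus ATL difference was 1.34 (adjusted p 0.0144), with overlap of mice, and was lost without DTL3 mouse 1 (0.63, adjusted p 0.312), under quantile normalization (0.88) and with a pseudocount of 5 TPM (0.56). OMCD exceeded IMCD in Adcy4 by 1.53 (SE 0.43, adjusted p 0.00463), at 1.5 to 3.91 against 0.08 to 0.22 TPM. That Adcy4 call was lost under quantile normalization (0.85, adjusted p 0.1004) and with a pseudocount of 5 TPM (0.51, adjusted p 0.0582). The endothelial sum was also higher in OMCD, at 433 to 587 TPM, than in CCD (158 to 254 TPM) and IMCD (34.9 to 327 TPM), and its part in these Adcy4 differences was not tested. Adcy3 was lower in PTS3 than in DTL1 by -1.26 (SE 0.31, adjusted p 0.000326), a difference of -0.85 after median ratio rescaling, -0.41 with a pseudocount of 5 TPM and, with the sign turned, 0.26 under quantile normalization, none of them called. In DTL1, 29.4% of the odorant and vomeronasal receptor genes had a mean at or above that of Adcy3. Exons of Adcy3 overlap those of Cenpo on the opposite strand, and exons of Adcy6 those of the antisense gene Gm29331.

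Adcy7 (ENSMUSG00000031659) had its highest mean log2 level in GL, at 13.6, 8.50 and 6.10 TPM, which did not differ beyond the spread from DTL3, the next in order (0.44, SE 0.54, adjusted p 0.607 by limma). DTL1 had 9.9, 8.32 and 2.5 TPM and DTL3 5.02, 8.09 and 5.78 TPM. The Adcy7 difference between DTL3 and ATL was not called with all 4 ATL mice (DTL3 minus ATL 0.72, adjusted p 0.294 by limma), but with ATL mice 2 and 3 alone DTL3 was higher by 2.48 (adjusted p 1.68e-08). Within ATL the mice divided, with 0.43 and 0.15 TPM in mice 2 and 3 and 23.5 and 7.87 TPM in mice 4 and 6, the mice with 601 and 703 odorant and vomeronasal receptor genes above. The Adcy7 ATL minus MTAL difference was 1.68 (SE 0.50, adjusted p 0.00574 by limma), but with mice 2 and 3 alone it was -0.08 (adjusted p 1), and without mouse 4 it was 0.85 (adjusted p 0.0904). The call was also lost with a pseudocount of 5 TPM (0.91), under quantile normalization (1.09, adjusted p 0.0521) and with a replicate block (1.22, adjusted p 0.0840). The OMCD mice (5.14, 2.19, 4.58 and 1.81 TPM) lay above those of CCD (0.22 to 0.91 TPM) and IMCD (0.52, 1.74 and 0.32 TPM). Adcy7 CCD minus OMCD was -1.43 (SE 0.44, adjusted p 0.0135 by limma) and lost its call without OMCD mouse 1 (-1.24, adjusted p 0.0643), under quantile normalization (-0.571, adjusted p 0.387) and with a pseudocount of 5 TPM (-0.574, adjusted p 0.0978). Adcy7 OMCD minus IMCD was 1.43 (SE 0.50, adjusted p 0.0248), and 1.25 to 1.38 when OMCD mouse 1 or 3 or IMCD mouse 1 or 3 was left out (adjusted p 0.0686 to 0.0952). It was 0.65 under quantile normalization, 0.54 with a pseudocount of 5 TPM and 1.16 after median ratio rescaling, each without a call. The 7 leukocyte genes summed to 109 to 489 TPM in OMCD (median 142), 131 to 325 in CCD (median 204) and 19.3 to 36.5 in IMCD, and the number of odorant and vomeronasal receptor genes that reached 1 TPM was also highest in OMCD among these groups. Their part in the Adcy7 differences was not tested. At most 3.79% of the odorant and vomeronasal receptor genes reached the mean of Adcy7 in any group.

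Adcy9 (ENSMUSG00000005580) had the smallest ratio of highest to lowest group mean among the cyclases, 7.52, from a mean of 0.525 TPM in CTAL to 3.95 TPM in DTL1. Its single called difference was ATL minus MTAL (1.09, SE 0.18, adjusted p 3.09e-06 by limma), with 2.26, 3.37, 2.78 and 1.91 TPM in the ATL mice and 0.74, 0.56 and 0.70 TPM in the MTAL mice. The Adcy9 ATL minus MTAL difference was 0.99 without ATL mouse 3, 0.85 after median ratio rescaling, 0.42 with a pseudocount of 5 TPM and 0.01 under quantile normalization, and was not called in any of these. In PTS3, Adcy9 (3.54, 3.25 and 3.52 TPM) was above Adcy6 in 2 of 3 mice, with the opposite order in mouse 2, and the difference between these genes was not tested. In DTL1, the group with its highest mean, 11.7% of the odorant and vomeronasal receptor genes had a mean at or above that of Adcy9, and in ATL 5.86%.

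**Figure D2:**
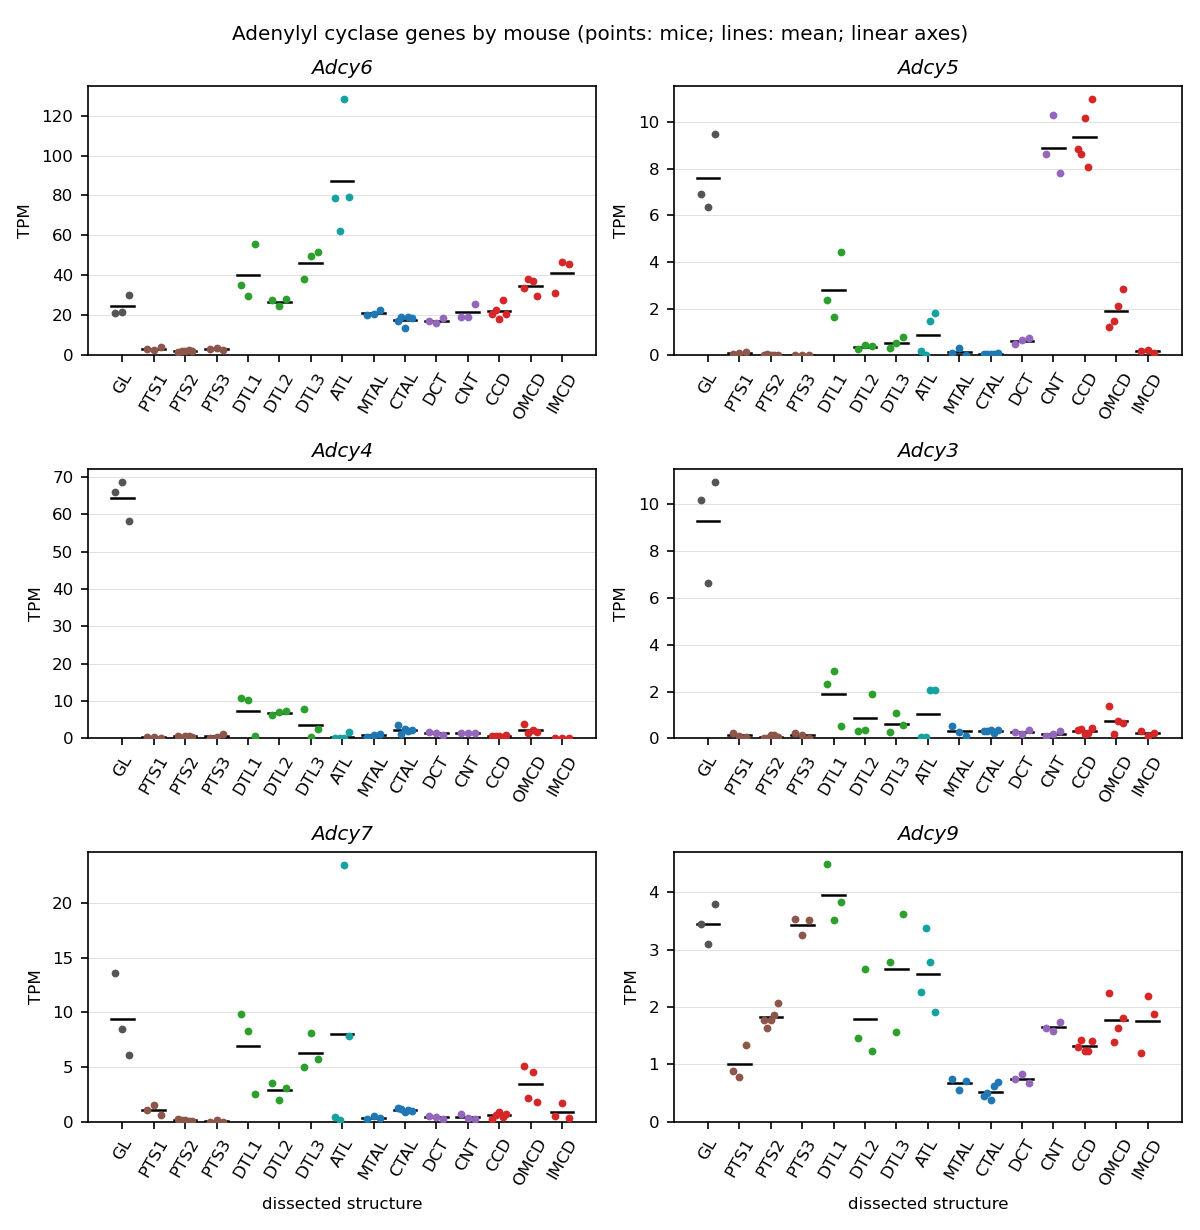
Abundance of the 6 member cyclase genes (TPM, linear axes) in the 15 groups, points for mice and bars for group means. Adcy6 was at least 13.8 TPM in all mice outside the proximal tubule, Adcy5 was 7.83 to 10.99 TPM in CNT and CCD, and Adcy4 reached 58.3 to 68.6 TPM in GL.

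The relative make-up of the cyclases differed along the tubule. Adding the 4 other cyclase genes (Adcy1, Adcy2, Adcy8 and Adcy10), the summed TPM was 152 ± 7.73 in GL, 5.04 to 7.33 on average in the proximal segments, 106 ± 43.8 in ATL, 34.4 in CCD and 44.8 in IMCD. Adcy6 took the highest mean share in every group except GL, where Adcy4 took 42.4 ± 5.57% (SD, n = 3), and PTS3, where Adcy9 took 47.0% and Adcy6 40.6%. The Adcy6 share was 92.0 ± 2.22% in IMCD (90.4% to 94.5% over 3 mice), 84.9 ± 11.1% in ATL and 82.1% in DCT. The ATL mice divided here too, with an Adcy6 share of 96.0% (mouse 2), 92.8% (mouse 3), 77.1% (mouse 4) and 73.8% (mouse 6). In CCD it was 63.3%, with Adcy5 at 27.4 ± 4.62% (21.0% to 32.4% over 5 mice), and in CNT 61.7%, with Adcy5 at 26.0 ± 5.14%.

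In the thick limb the second cyclase was Adcy1, which is not a member. Adcy1 stood at 11.5 ± 1.32 TPM in MTAL and 7.09 ± 1.55 in CTAL, against 0.243 ± 0.023 TPM in DCT, and took 32.3 ± 1.3% and 24.4 ± 5.68% of the summed cyclase TPM in the first 2. CTAL exceeded DCT in Adcy1 by 2.68 (SE 0.24, adjusted p 2.71e-12 by limma), and the collecting duct was lower than the thick limb by -3.12 (SE 0.15, adjusted p 7.75e-22). Its highest mean was in GL, at 27.5 ± 8.63 TPM. Adcy2, Adcy8 and Adcy10 did not exceed a mean of 5.61 TPM in any group.

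**Figure D3:**
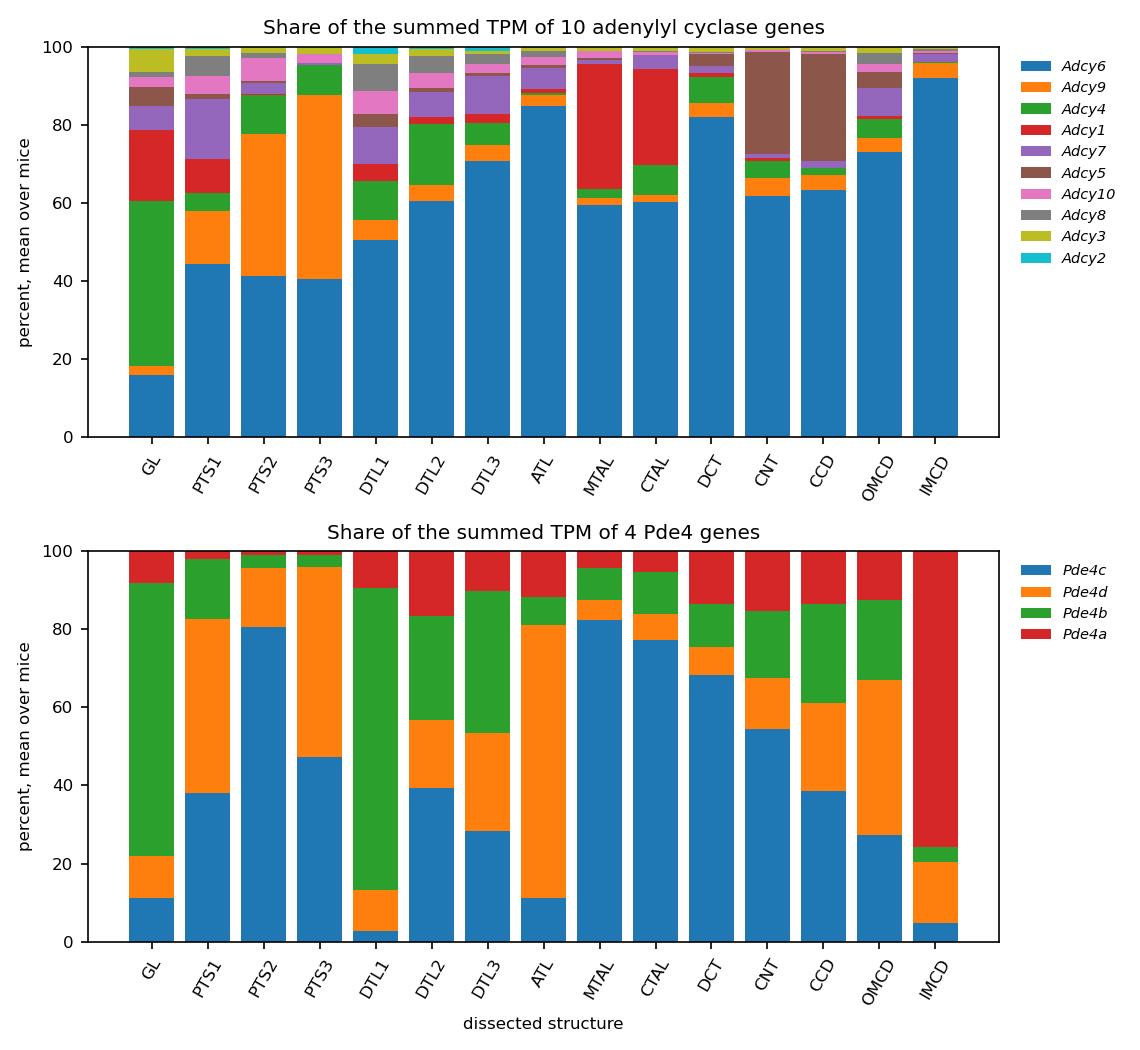
Share of the summed TPM of the 10 Adcy genes taken by each gene, as group means (percent) in nephron order. Adcy6 is the main share in most tubule segments, with Adcy1 second in MTAL and CTAL, Adcy5 second in CNT and CCD, and Adcy4 first in GL.

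Gnas (ENSMUSG00000027523) was abundant everywhere, with a mean of at least 314 TPM in all 15 groups. The PTS1 mice had 306, 285 and 349 TPM and the GL mice 1547, 1484 and 1826 TPM, and every other mouse lay between those ranges. Between these, group means ran from 538 to 858 TPM and no neighbours in the order of levels from CCD down to DTL3 differed by limma. Groups farther apart in that order did: IMCD minus CCD was -0.57 (adjusted p 0.000249), OMCD minus IMCD 0.53 (adjusted p 0.00104), DTL2 minus DTL3 0.44 (adjusted p 0.0184) and ATL minus MTAL -0.43 (adjusted p 0.00558), all short of the required size. PTS1 was lower than PTS2 (692 ± 18.7 TPM, n = 5) by -1.14 (SE 0.12, adjusted p 3.24e-10), and GL higher than the mean of the tubule segments by 1.26 (SE 0.10, adjusted p 1.11e-14). The first difference was -0.79 under quantile normalization and the second 0.69 after median ratio rescaling. The IMCD mice spread widely, at 381, 706 and 728 TPM. Gnas is an imprinted locus with several promoters, and its exons overlap those of the antisense gene Nespas, so its value may pool several transcripts.

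Pde4d (ENSMUSG00000021699) was highest in PTS3, at 44.3, 78.9 and 56.1 TPM. PTS2 had 13.1, 13.6, 15.5, 12.9 and 19.6 TPM, and the difference PTS2 minus PTS3 was -1.91 (SE 0.24, adjusted p 3.95e-08 by limma). PTS3 exceeded DTL2 by 2.15 (SE 0.27, adjusted p 2.69e-09) and DTL1 by 1.21 (SE 0.27, adjusted p 8.06e-05), the Pde4d PTS3 minus DTL1 difference being 0.99 without PTS3 mouse 2 and 0.90 without DTL1 mouse 5. PTS3 was also above ATL, the next in order, by 0.77 (adjusted p 0.00799), short of the required size, where the ATL mice had 33.1, 22.0, 75.8 and 23.0 TPM.

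In the collecting duct Pde4d fell between the outer and inner medulla. OMCD had 30.2, 25.3, 34.9 and 36.0 TPM, CCD 26.9, 24.3, 22.8, 31.7 and 26.7 TPM, and IMCD 7.41, 5.55 and 4.10 TPM. IMCD did not overlap either, and OMCD minus IMCD was 2.37 (SE 0.25, adjusted p 1.04e-10 by limma). IMCD minus CCD was -2.13 (SE 0.24, adjusted p 3.56e-10). The intercalated cell sum (3143 to 4356 TPM in OMCD and 0.81 to 5.8 in IMCD) and the leukocyte sum (109 to 489 and 19.3 to 36.5 TPM) were lower in IMCD as well, and their part in the Pde4d difference was not tested.

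Other genes of its family showed which Pde4 transcript prevailed where Pde4d was low. Of the summed TPM of Pde4a, Pde4b, Pde4c and Pde4d, Pde4a took 75.7 ± 4.02% in IMCD and Pde4d 15.7%, while in OMCD Pde4d took 39.6 ± 6.14%. Pde4c took 82.3 ± 0.25% in MTAL, at 157 ± 18.5 TPM. Pde4b took 77.6% in DTL1, at 193 ± 58.6 TPM, and 69.9% in GL. Pde4d took the highest mean share in ATL (69.9 ± 16.0%), PTS3 (48.8 ± 5.65%, with Pde4c at 47.3%), PTS1 (44.6%, with Pde4c at 38.2%) and OMCD, where Pde4c took 27.4%. The summed level of the 4 genes was 36.2 ± 4.82 TPM in IMCD, 79.7 in OMCD and 118 in CCD.

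**Figure D4:**
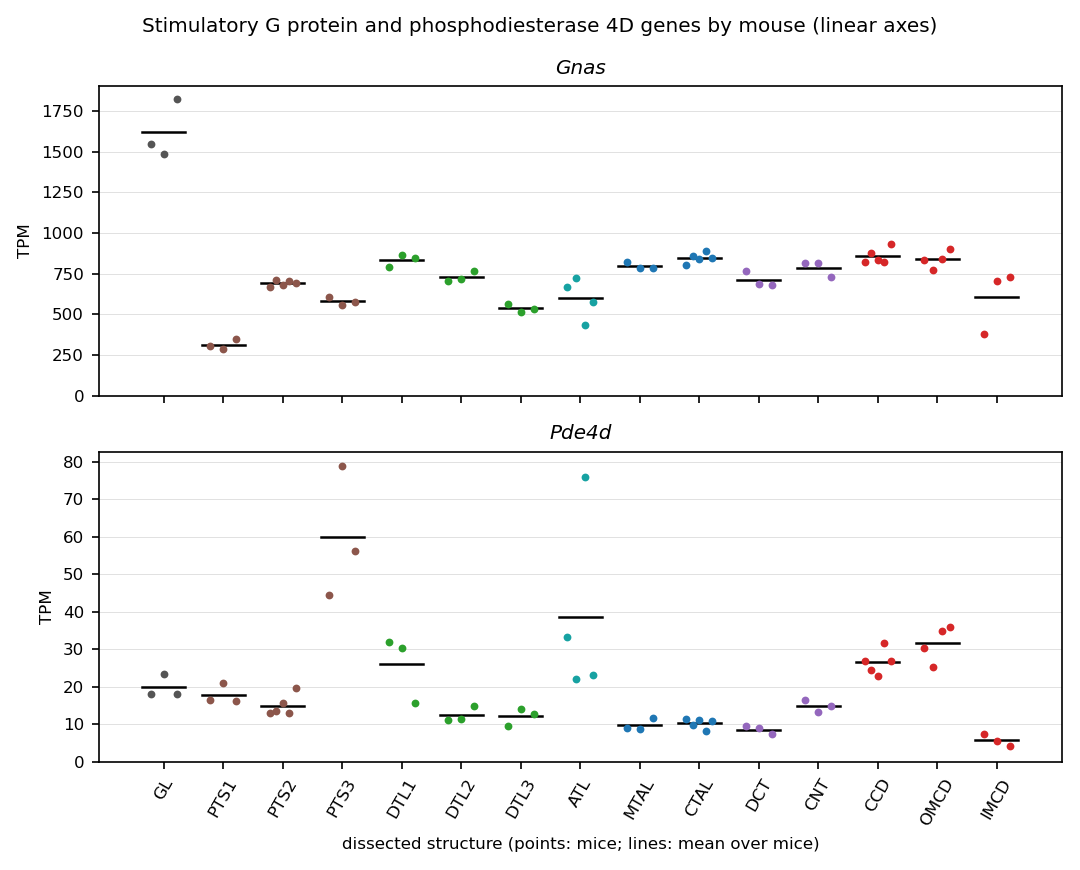
Abundance of Gnas and Pde4d (TPM, linear axes) in the 15 groups, points for mice and bars for group means. Gnas is lowest in PTS1 and highest in GL; Pde4d is highest in PTS3 and falls from 25.3 to 36.0 TPM in OMCD to 4.10 to 7.41 TPM in IMCD.

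Counted over neighbouring segments, the members gave 38 calls among 140 tests (10 genes in 14 pairs), and 17.5% of all such tests over all genes were calls. Over the 4 comparisons between regions they gave 16 calls of 40 tests, against 20.8%. Of the 54 calls, 43 had no overlap between the mice of the 2 sides and 11 had some. The share without overlap was not computed for the calls of all genes, so these counts only describe the members. The calls were unevenly placed. CNT and CCD gave none (0 of 10 members called by limma, with 1.12% of genes called; unadjusted p was under 0.05 for Avpr2 at -0.68 and for Pde4d at -0.79). DCT and CNT gave 3 of 10, Avpr2, Avpr1a and Adcy5, all lower in DCT, with 5.22% of genes called and 3.7% called lower. OMCD and IMCD gave 5 of 10, Avpr1a, Adcy4, Adcy5, Adcy7 and Pde4d, all higher in OMCD, with 18.6% of genes called and 15.2% called higher. CCD and OMCD gave 4 of 10, with 12.1% of genes called, Avpr1a and Adcy5 higher in CCD and Adcy4 and Adcy7 lower.

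The thin limb comparisons had a high background. PTS3 and DTL1 gave 7 of 10 calls, with 65.5% of genes called and 61.8% called lower in PTS3, and the median over all genes was itself -1.33. Among them, Adcy5 PTS3 minus DTL1 was -1.84, and -0.04 under quantile normalization (adjusted p 0.885 by limma) and -0.62 with a pseudocount of 5 TPM, not called in either. Adcy5 DTL1 minus DTL2 was 1.42, and 0.27 and 0.53 under the same settings, again without a call. PTS3 and DTL2 gave 4 of 10 with 40% of genes called, DTL1 and DTL2 2 of 10 with 28.2%, DTL2 and DTL3 2 of 10 with 9.58%, DTL3 and ATL 3 of 10 with 14.6%, and ATL and MTAL 4 of 10 with 28.1%. Of the remaining pairs, PTS1 and PTS2 (9.57% of genes called), PTS2 and PTS3 (4.7%), MTAL and CTAL (3.15%) and CTAL and DCT (4.35%) each had 1 of 10 called, namely Gnas, Pde4d, Avpr2 and Avpr1a.

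Between regions, the collecting duct was higher than the thick limb in 3 of 10 members, Avpr2, Avpr1a (4.23, SE 0.17, adjusted p 9.82e-25 by limma) and Adcy5 (1.57, SE 0.15, adjusted p 1.86e-12), and lower in 0, with 11.6% of genes called. For Avpr1a and Adcy5 the mice of the 2 regions overlapped: IMCD, at means of 0.304 and 0.169 TPM, lay near CTAL (0.533 TPM of Avpr1a) and MTAL (0.135 TPM of Adcy5). The Adcy5 difference was 0.98 under quantile normalization and 0.65 with a pseudocount of 5 TPM, not called in either. The members' median difference was 0.68 against 0.22 over all genes. The segments from MTAL to IMCD were higher than the proximal tubule in 4 of 10, Avpr2, Avpr1a (3.95), Adcy5 (1.28) and Adcy6, with 19.7% of genes called, and the medians were 0.61 and 0.10. Here too the mice overlapped for Avpr1a and Adcy5. Avpr1a averaged 0 TPM in MTAL and 0.087 TPM in PTS2, and Adcy5 0.053 TPM in CTAL and 0.088 TPM in PTS1. IMCD was lower than CCD in 3 of 10, Avpr1a, Adcy5 and Pde4d, with 16.3% of genes called and medians of -0.33 and 0.04. Adcy5 no longer reached 1 log2 unit with a pseudocount of 5 TPM for the first (0.65) and the second (0.52) of these comparisons, and was 0.98 under quantile normalization for the first.

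GL differed from the mean of the tubule segments in 6 of 10 members, with 35.6% of genes called, 31.6% higher and 3.94% lower. Adcy3 (2.83, SE 0.23, adjusted p 9.63e-15 by limma), Adcy4 (4.85, SE 0.34, adjusted p 1.03e-16), Adcy5 (2.15, and 0.98 without a call at a pseudocount of 5 TPM), Adcy7 (2.10) and Gnas were higher and Avpr2 was lower. The median over all genes was 0.69 in this comparison, and moved to 0.42 after median ratio rescaling and 0.03 under quantile normalization.

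**Figure D5:**
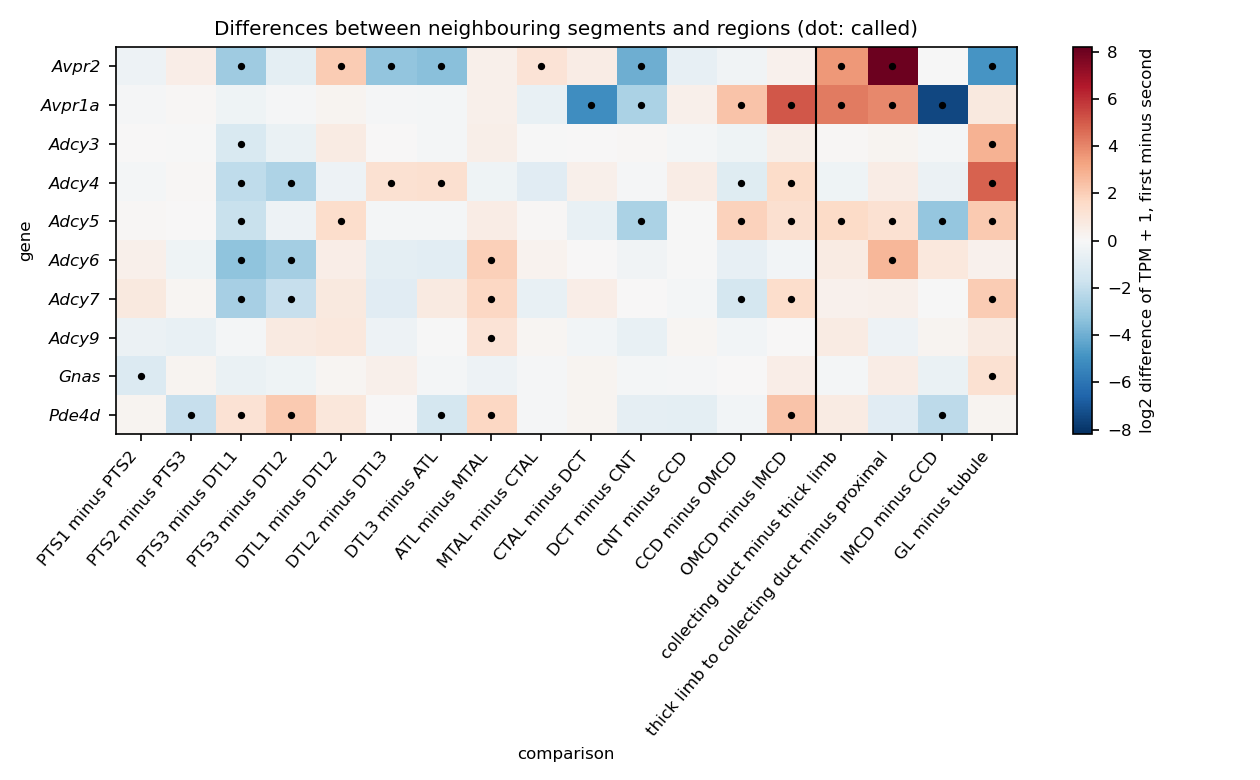
Log2 differences of the 10 members (rows of the grid) in the 14 neighbouring and 4 regional comparisons (columns), on the log2(TPM + 1) scale as first minus second, with called differences marked. The DCT minus CNT column holds 3 called members, all lower in DCT, with 5.22% of all genes called. The CNT minus CCD column holds none, with 1.12% of all genes called.

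Around the members, 81 further genes of the vasopressin and cyclic AMP pathway were read in 10 lists. All 81 passed the filter and all differed among the 15 groups, as did 93.9% of all genes tested. In the collecting duct, 23 were higher and 11 lower than in the thick limb, with 8.11% and 3.52% of all genes called higher and lower. The split was 18 and 15 after median ratio rescaling and 15 and 14 under quantile normalization over all pathway lists, and over all genes the share of calls that were higher moved from 69.7% to 48.7% and 43.9%. The G protein genes Gnaq, Gnai2 and Gnb1 were higher and Gnai1, which like Gnai2 encodes an inhibitory alpha subunit, was lower (-1.73, SE 0.12, adjusted p 1.16e-16 by limma). That Gnai1 difference averages over CCD, OMCD and IMCD, and within the collecting duct Gnai1 was far lower in IMCD than in CCD, as given below. Between CCD and OMCD, 0 of 8 G protein genes were called, with 12.1% of all genes called in that pair. Among 14 phosphodiesterase genes, Pde1c (5.25), Pde3b (3.93), Pde8b (4.25) and Pde10a (1.73) were higher, and Pde4c (-3.32) and Pde1a (-1.09) lower. Both Epac genes were called higher, Rapgef3 by 1.79 (SE 0.15, adjusted p 1.21e-13) and Rapgef4 by little more than the required size (adjusted p 0.00643), the latter lost in 6 alternatives. The Gnai2 and Gnb1 calls were lost after median ratio rescaling and that of Gnaq under quantile normalization.

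Of 11 other hormone receptor genes, 2 were higher and 3 lower in the collecting duct than in the thick limb, and 6 were not called. Among all genes, 8.11% were called higher and 3.52% lower. The calls of 3 are given here. Gcgr, the glucagon receptor gene, averaged 389 TPM in the thick limb and 28.2 TPM in the collecting duct (-4.99, SE 0.15, adjusted p 2.62e-30 by limma). Pth1r, the parathyroid hormone receptor gene, averaged 299 and 2.09 TPM (-4.48, SE 0.19, adjusted p 1.67e-24). Ptger4, a prostaglandin E2 receptor gene, averaged 10.3 TPM in the collecting duct and 2.48 TPM in the thick limb, although IMCD, at 0.406 TPM, lay below the thick limb mean and CCD, at 19.4 TPM, held most. The difference of the regions was 1.31 (SE 0.19, adjusted p 2.18e-07 by limma), a call that was lost with a pseudocount of 5 TPM and under quantile normalization.

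From MTAL to IMCD against the proximal tubule, 40 of the 81 pathway genes were higher and 2 lower, with 15.3% and 4.46% of all genes called higher and lower. The median was 0.97 against 0.10 over all genes. Over all pathway lists the counts were 24 and 5 both after median ratio rescaling and under quantile normalization. Of 14 phosphodiesterase genes, 10 were higher, among them Pde1a (5.07, SE 0.14, adjusted p 1.72e-31 by limma), Pde8b (4.11, SE 0.18) and Pde4a (2.92, SE 0.13), and 0 lower. Of 7 desensitisation genes 5 were higher, including the arrestin gene Arrb2 (2.18, SE 0.19) and the receptor kinase gene Grk3 (2.34, SE 0.13). Of the 6 CREB family genes 5 were higher, and each of these 5 lost its call after median ratio rescaling and under quantile normalization. Prkar1b, a regulatory subunit gene of protein kinase A, was higher by 2.96 (SE 0.11, adjusted p 5.20e-27).

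IMCD differed from CCD in more of these genes downward than upward. Of the 81 pathway genes, 28 were lower and 7 higher in IMCD, with 10.1% and 6.22% of all genes called lower and higher, and the median was -0.51 against 0.04. Over all pathway lists the counts were 27 lower and 8 higher after median ratio rescaling and 27 and 9 under quantile normalization. Of 9 protein kinase A genes, 6 were lower, including Prkar1a (450.0 TPM in CCD and 158 TPM in IMCD; -1.52, SE 0.12, adjusted p 5.28e-15 by limma) and Prkacb (48.1 and 19.2 TPM). The regulatory subunit gene Prkar2b was higher, at 30.9 TPM in IMCD against 0.127 TPM in CCD (4.60, SE 0.24, adjusted p 1.13e-20), and the inhibitor gene Pkib was lower, at 0.896 against 35.4 TPM.

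Of 14 phosphodiesterase genes, 5 were lower and 2 higher in IMCD than in CCD, with 10.1% of all genes called lower and 6.22% higher. Pde4b (30.3 TPM in CCD and 1.34 TPM in IMCD), Pde4c (45.4 and 1.76 TPM), Pde3b (48.5 and 4.18 TPM), Pde8a (25.2 and 1.90 TPM) and Pde1a (301 and 123 TPM) were lower in IMCD. Pde1c (25.6 and 78.2 TPM) and Pde1b (0.39 and 10.5 TPM), of the same calcium and calmodulin-stimulated family as Pde1a, were higher. Gnai1 fell from 55.6 TPM in CCD to 1.97 TPM in IMCD (-4.32, SE 0.19, adjusted p 1.15e-23 by limma), and Rapgef4 from 19.5 to 0.182 TPM (-4.14, SE 0.47, adjusted p 6.00e-10). Of 11 other hormone receptor genes 6 were lower in IMCD, including Gcgr (63.7 and 0.26 TPM) and Ptger4 (19.4 and 0.406 TPM), and 0 higher. The intercalated cell sums given above were also lower in IMCD than in CCD, and their part was not tested.

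Of 10 effector genes, the channels and transporters on which vasopressin acts, 2 were higher and 5 lower in IMCD than in CCD. Over all genes, 6.22% were called higher and 10.1% lower. Aqp2 was not called, at 27393 TPM in IMCD and 14003 TPM in CCD (0.97, SE 0.47, adjusted p 0.139 by limma), nor were Slc12a1 and Slc12a3. Aqp4, a basolateral water channel gene, was higher in IMCD (585 TPM) than in CCD (68.8 TPM; 3.11, SE 0.25, adjusted p 1.44e-14 by limma), and Aqp3 was lower (384 and 4009 TPM; -3.48, SE 0.22, adjusted p 1.25e-17). Slc14a2, the urea transporter gene, averaged 2182 TPM in IMCD and 0.002 TPM in CCD. Kcnj1 and the sodium channel genes Scnn1a, Scnn1b and Scnn1g were lower, each with a mean under 1 TPM in IMCD. In the CREB family list, the coactivator gene Crtc3 was higher in IMCD (36.6 and 6.87 TPM; 2.25, SE 0.26, adjusted p 8.40e-10).

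Genes whose pattern was most like each member were sought by Pearson's r of log2(TPM + 1) over the 15 group means, among genes with a mean of at least 10 TPM in their highest group. The genes compared share the same libraries and depth is unknown, so r is a description. For Avpr2 they were Muc1 (0.96) and Mal2 (0.96), and for Avpr1a Insrr (0.98), Hepacam2 (0.97) and AC162305.2 (0.97). Adcy5 was most like Pln (0.95), Adcy6 most like Hlcs (0.99), Adcy4 most like Podxl (0.99), a podocyte marker used above that endothelial cells are also known to express, followed by Gsdmd (0.98) and Plekho1 (0.98), and Adcy3 most like Adamts5 (0.99). The highest likeness of Pde4d was to Nmral1, at 0.87, of Gnas to Sorbs3, at 0.91, of Adcy9 to Pole2, at 0.90, and of Adcy7 to Cd44, at 0.98, followed by the odorant receptor gene Olfr554, also at 0.98. Among pairs of members, r was highest for Adcy3 and Adcy4, at 0.91.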

How the data were processed

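The table analysed holds TPM, a length-scaled transcript abundance, for 54532 genes in 93 samples, as deposited by the authors. RNA was purified with Direct-zol columns, amplified with the SMARTer V4 ultra low input chemistry and made into Nextera XT libraries, per the labels' protocols, so polyadenylated RNA amplified by PCR was measured. STAR 2.5.4a and RSEM 1.3.0 are listed, with no role stated, per the submitters' processing notes. The genome build, the annotation and the strand setting are not given in the sources used here. TPM keep no depth.

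From these values, log2(TPM + 1) was averaged over the pieces of a mouse, genes that reached 1 TPM in 3 or more mice were kept (33793), and limma 3.58.1 (R 4.3.3) was fitted to 15 groups with a trended prior and Benjamini-Hochberg adjustment. For a gene to mark a group, all 14 of its log2 differences from other groups had to be at least 1. The largest of the 14 one-sided p-values, adjusted over genes within that group, also had to be under 0.05. Levels are TPM averaged over pieces and then over mice. In 1 PTS2 column the name gives mouse 2 with a piece letter that is not in the title of the PTS2 sample of mouse 2, and it was used as a mouse of PTS2 without a number. Mouse numbers were not taken to pair segments, since the labels do not say whether a recurring number is the same animal. Residuals correlated above 0.1 in 19 of 290 same-numbered pairs and in 31 of 968 differently numbered pairs.

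The 10 members, the 81 pathway genes and the marker lists were chosen with earlier results of these data known. All members are named, with pathway genes of high level or called in a described comparison and, for each member, 1 to 3 of the genes of highest correlation, passing over Gm, Rik, mitochondrial, ribosomal protein and pseudogene symbols. In simulated data with 200 genes changed by 2 log2 units among 33793, the fit recovered 91% for DCT against CNT, 94% for CNT against CCD, 96% for CCD against OMCD and 94% for OMCD against IMCD. For genes changed in CNT and in OMCD it recovered 85.5% and 94.5% in the F-test and 83% and 88% as single-group markers. Promoters came from RefSeq for GRCm38.p6 by symbol, and overlapping exons from GENCODE M21. Alternatives were pseudocounts of 0.1 and 5 TPM, a filter at 5 TPM or none, median ratio rescaling on 11566 genes, quantile normalization, pieces averaged before the log, all 93 samples as independent, a replicate block, ATL mice 2 and 3 alone, a fit without GL, DTL1, DTL2 and DTL3, a prior without trend, and leaving out each mouse. The 3 single-cell samples of the series and the authors' segment means were not used here.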

Additional observations from a re-analysis of the deposited data

Results flagged for a closer look

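Of 50 sets of values, each 1 member in 1 group of 4 or 5 mice, 4 held a mouse far from the others by Dixon's criterion at the 95% level, where chance gives about 1 in 20. Avpr1a in PTS2 reached 0.175 TPM in mouse 3, where the remaining mice had 0.04 to 0.075 TPM. Avpr1a in ATL was 2.20 TPM in mouse 4 and listed at 0 in the other mice. For Adcy4, mouse 6 of ATL had 1.61 TPM against 0 to 0.09 TPM in the remaining ATL mice. Mice 4 and 6 of ATL are those with 601 and 703 odorant and vomeronasal receptor genes at 1 TPM or more, against 33 and 20 in mice 2 and 3, and in ATL 36.2% of these genes had a mean at or above that of Avpr1a and 41.3% at or above that of Adcy4. The part of this background in both values was not tested. Mouse 5 of CCD had 0.92 TPM of Adcy4, and the rest of that group had 0.44 to 0.565 TPM. All these values lie under 3 TPM.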

How the results depend on the processing

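The members gave 38 calls between neighbouring segments, 16 between regions and 2 single-group markers. With a pseudocount of 5 TPM there were 24 calls between neighbours, and with 0.1 TPM 49, with 22 between regions; the pseudocount by construction shrinks or widens differences at low TPM. Without GL, DTL1, DTL2 and DTL3, which removes comparisons, there were 20 between neighbours, 10 between regions and 1 marker. Quantile normalization gave 4 markers and median ratio rescaling 3, and the cause was not tested. When each mouse was left out in turn, the calls numbered 35 to 40 between neighbours and 16 to 17 between regions, and the markers stayed at 2.

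Of the 56 single calls (54 differences and 2 markers), 17 were lost with a pseudocount of 5 TPM, 15 under quantile normalization, 1 of them with its sign reversed, 5 after median ratio rescaling, 2 each with a pseudocount of 0.1 TPM, without a filter and with pieces averaged before the log, and 22 of 916 refits lost a call when a mouse was left out. Treating all 93 samples as independent or fitting a prior without trend lost 0 of 56, and a filter at 5 TPM lost 0 of the 55 it could give, since Adcy9 did not pass it. Signs reversed in 2 cases: Adcy3 PTS3 minus DTL1 was 0.26 under quantile normalization (adjusted p 0.282 by limma), and Adcy7 ATL minus MTAL was -0.0805 with ATL mice 2 and 3 alone (adjusted p 1 by limma). The cause was not tested for the first, and the second follows from the mice kept.

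With a replicate block on mouse number there were 35 calls between neighbours and 16 between regions, 10 members passed the F-test and 2 were markers. The lost calls were Adcy7 ATL minus MTAL (1.22), Avpr2 MTAL minus CTAL (0.91) and Adcy4 CCD minus OMCD (-0.93), and 53 of 56 calls were kept. Correlations of residuals were over 0.1 in 19 of 290 same-number pairs and in 31 of 968 different-number pairs, with a median of 0 in both. These values do not decide whether a recurring number is the same animal. The numbers were not taken to pair the samples because the labels do not say so. With the sum taken over the 6 member cyclases alone, 18 of 90 mean shares moved by more than the SD over mice. Depth is unknown, so values near 0 TPM cannot be given a detection limit.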
